A study of Mus musculus with 8 samples.

Results

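The genes described here are 10 members of the Hippo pathway: the transcription factors Tead1, Tead2, Tead3 and Tead4, the coactivators Yap1 and Wwtr1 (the gene for TAZ), the kinases Lats1 and Lats2, and the target genes Ctgf (also named Ccn2) and Cyr61 (also named Ccn1). Each of the 10 was read by at least 1 probe set assigned to no other gene, as were 19938 genes in all. Tead1 was chosen by its measured difference between hydrogen water and control, and the other 9 were listed with it as its relatives, partners, regulators and targets. The difference of Tead1 is therefore given as a description, without a test.

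RNA came from livers of C57BL6 mice after 17 h of fasting, each sample on its own Affymetrix Mouse Gene 1.0 ST array. The 4 hydrogen water arrays came from mice that drank water with dissolved molecular hydrogen for 4 weeks, starting at 7 weeks of age. The control group (4 arrays) was fasted alike; the hydrogen concentration and the sex of the animals are not stated in the labels. The labels' treatment field names hydrogen water for controls too. The division into groups therefore rests on the titles, descriptions and source names, where controls are described by fasting alone. What the controls drank and their age are not otherwise stated. All animals were housed at 24 °C on a day of 12 h light and 12 h dark. Whether each array is a separate animal is not stated outright. The p-values of group differences weigh them against the spread between samples of a group, whatever its source. The median log2 signal of an array lay between 5.27 and 5.37, and each array's mean correlation with its group was lowest for control 3 (0.989, against 0.992 to 0.994 for the other 7 arrays). The brightest hepatocyte marker, Apoa1, stood at 14.45 in controls and 14.41 with hydrogen water.

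The Hippo pathway is a kinase cascade that restrains organ growth. Its last kinases, LATS1 and LATS2, phosphorylate the coactivators YAP and TAZ and keep them out of the nucleus. Unphosphorylated YAP and TAZ bind TEAD factors on DNA and switch on genes such as Ctgf and Cyr61, which encode secreted matricellular proteins. In liver the pathway is known for its control of organ size and of hepatocyte and bile duct cell identity. Much of its regulation acts on the proteins, through phosphorylation and location, which an RNA array does not read.

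TEAD factors bind the motif CATTCC, which reads GGAATG on the other strand. Promoter sequences were taken from RefSeq (GRCm38.p6), as the 250 bases before each annotated start, and 7 of the 10 genes matched an entry; Tead1, Tead4 and Ctgf did not. Of 32851 such windows of mouse genes, 12.6% held the motif on either strand. Among the members it was found in at least 1 window of Cyr61, Yap1, Wwtr1 and Tead3, and 6 of the 11 windows of the 7 matched genes held it; the windows of Wwtr1 overlap and share 1 motif. A match is a description of the letters and does not show binding. The windows of the target Cyr61 and of both coactivators are printed because the main question was whether such genes followed Tead1; each is on the minus strand, 5′ to 3′, with the motif in capitals. They lie at chr3:145649986-145650235 (Cyr61), chr9:8004597-8004846 (Yap1) and chr3:57575911-57576160 (Wwtr1, the farther upstream of its starts).
Cyr61: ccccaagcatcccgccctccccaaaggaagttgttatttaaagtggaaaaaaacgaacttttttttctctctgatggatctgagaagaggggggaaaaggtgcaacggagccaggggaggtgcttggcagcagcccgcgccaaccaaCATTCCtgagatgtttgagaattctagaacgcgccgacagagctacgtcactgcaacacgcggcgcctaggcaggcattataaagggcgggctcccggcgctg
Yap1: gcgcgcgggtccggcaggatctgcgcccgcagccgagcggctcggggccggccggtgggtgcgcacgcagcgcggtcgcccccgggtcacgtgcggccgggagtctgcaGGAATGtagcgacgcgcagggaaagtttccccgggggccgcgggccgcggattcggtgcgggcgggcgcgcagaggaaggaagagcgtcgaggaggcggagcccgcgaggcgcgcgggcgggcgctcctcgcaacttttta
Wwtr1: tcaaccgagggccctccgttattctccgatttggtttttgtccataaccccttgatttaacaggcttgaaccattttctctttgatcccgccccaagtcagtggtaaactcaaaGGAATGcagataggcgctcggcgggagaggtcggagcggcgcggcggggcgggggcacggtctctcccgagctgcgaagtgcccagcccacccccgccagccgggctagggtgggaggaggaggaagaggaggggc
Counted back from the start site, the motif began at base −103 in Cyr61, −141 in Yap1 and −136 in Wwtr1. Lats1, Lats2 and Tead2 did not hold these letters in the windows read.

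Of the 4 TEAD genes, Tead1 stood apart between the groups and the other 3 overlapped. The log2 signal of Tead1 (transcript cluster 10556442) was 7.39, 7.44, 7.76 and 7.48 on controls 1 to 4, and 8.03, 7.85, 8.17 and 8.19 on hydrogen water 1 to 4. Every hydrogen water array lay above every control, and the nearest arrays, control 3 and hydrogen water 2, were 0.09 apart. Hydrogen water averaged 8.06 ± 0.15 (SD, n = 4) and control 7.52 ± 0.17 (SD, n = 4). They differed by 0.54 (SE 0.12), or 1.46-fold on a linear scale. Over all genes, 1.76% had groups wholly apart with hydrogen water higher, and 88 genes had a difference at least as high as that of Tead1, itself included.

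A second probe set of Tead1 (transcript cluster 10556456) served as a check on the first. It read 7.18, 7.40, 7.64 and 7.32 on controls 1 to 4, and 7.98, 7.85, 8.35 and 8.29 on hydrogen water 1 to 4. The groups were again wholly apart, by 0.21 at the nearest arrays. The difference was 0.73 (SE 0.14), from 8.12 ± 0.24 (SD, n = 4) with hydrogen water against 7.39 ± 0.19 (SD, n = 4) in control. On both probe sets control 3 was the highest control and hydrogen water 2 the lowest of its group. Both probe sets read the same RNA samples, so they are not independent replicates.

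**Figure D1:**
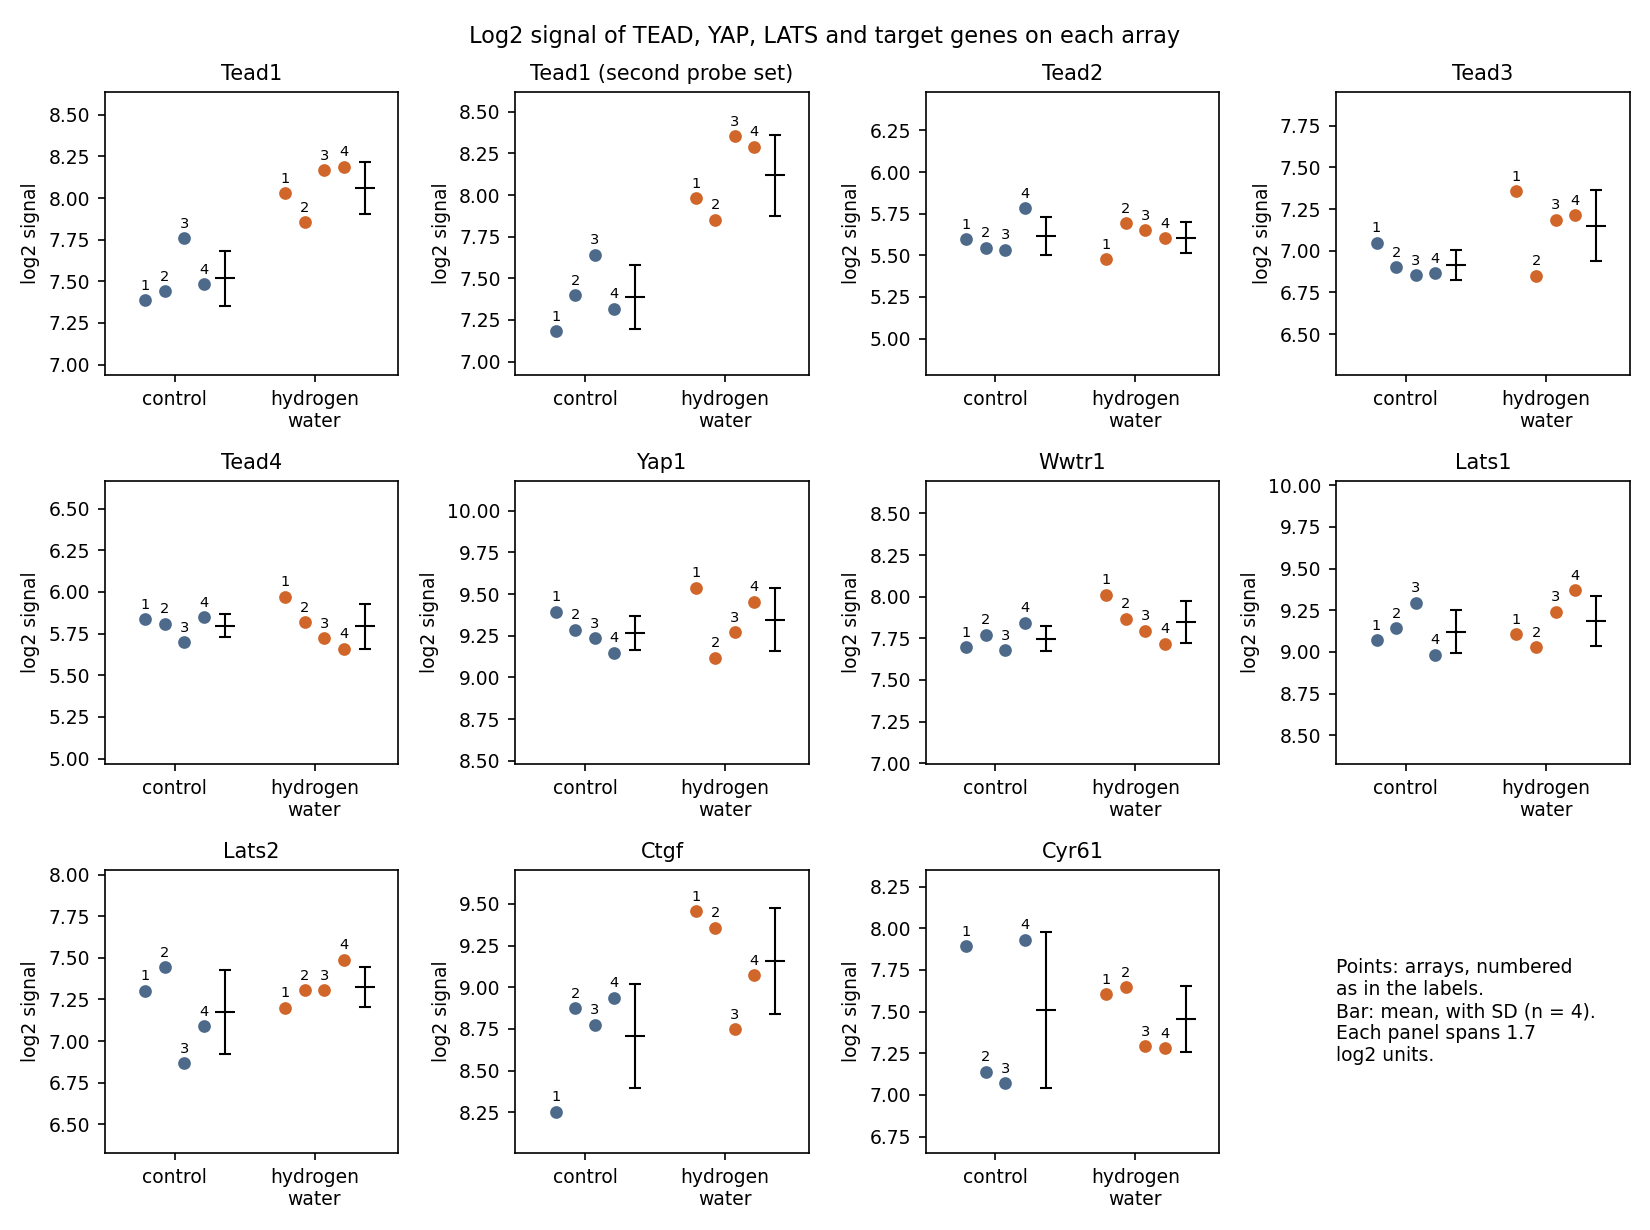
Log2 signal of the 10 genes on each array (y axis; points numbered by array, with mean and SD, n = 4), for control and hydrogen water; every panel spans the same range. Both Tead1 probe sets show hydrogen water arrays wholly above controls, while the groups of the other 9 genes overlap.

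Among the other 9 genes, 0 passed limma's test with Benjamini-Hochberg adjustment over all 19938 genes at 0.05 (adjusted p between 0.687 and 0.996). The same test called 0% of all genes, its lowest adjusted p being 0.558. At an unadjusted p under 0.05 by limma there was 1 of the 9, Ctgf, against 7.17% of all genes. None of the 9 had groups wholly apart, against 3.76% of all genes in either direction. Of the 9, 6 had a difference above 0, against 48.7% of all genes.

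Tead3 had the next largest difference in the TEAD family. Its log2 signal was 7.05, 6.90, 6.85 and 6.87 on controls 1 to 4 and 7.36, 6.85, 7.19 and 7.21 on hydrogen water 1 to 4. Above the highest control lay 3 hydrogen water arrays, but hydrogen water 2 lay below all controls. The difference was 0.235 (SE 0.12, limma adjusted p = 0.727). Without hydrogen water 2 the groups no longer overlapped, and the difference of 0.34 still missed the threshold (limma adjusted p = 0.387).

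Tead2 and Tead4 had mean differences near 0. Both were dim, with mean log2 signals of 5.61 and 5.80, below the median of 5.87 over all genes. The other 8 of the 10 genes lay above that median. Tead2 read 5.60, 5.55, 5.53 and 5.78 in controls and 5.48, 5.69, 5.65 and 5.60 with hydrogen water. Its difference was −0.0094 (95% interval −0.23 to 0.21). Tead4, best known for its part in the first lineage choice of the embryo, read 5.84, 5.81, 5.70 and 5.85 in controls and 5.97, 5.82, 5.72 and 5.66 with hydrogen water. Its difference was −0.0049 (95% interval −0.23 to 0.22). The hydrogen water arrays of both genes fell on either side of the control mean, 2 above and 2 below.

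The coactivators had small differences, with an SE of 0.116 for Yap1 and 0.101 for Wwtr1 against a median of 0.124 over all genes. Yap1, which encodes the main partner of TEAD factors, read 9.39, 9.29, 9.24 and 9.15 on controls 1 to 4 and 9.54, 9.12, 9.27 and 9.45 on hydrogen water 1 to 4. The hydrogen water group held both the highest and the lowest of the 8 values, and the difference was 0.08 (95% interval −0.17 to 0.33, limma adjusted p = 0.925). Wwtr1 read 7.70, 7.77, 7.68 and 7.84 in controls and 8.01, 7.87, 7.80 and 7.72 with hydrogen water. Its groups overlapped, with 2 hydrogen water arrays above the highest control. The difference was 0.10 (95% interval −0.12 to 0.32, limma adjusted p = 0.883).

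The kinases that act against YAP and TAZ did not pass the test either. Lats1 read 9.07, 9.14, 9.29 and 8.98 in controls and 9.11, 9.03, 9.24 and 9.37 with hydrogen water. Only hydrogen water 4 lay above the highest control, and the difference was 0.06 (95% interval −0.18 to 0.31, limma adjusted p = 0.942). Lats2, a kinase gene that is itself a known YAP target, read 7.30, 7.44, 6.87 and 7.09 in controls and 7.20, 7.31, 7.31 and 7.49 with hydrogen water. The controls spread more widely (SD 0.25 against 0.12), with control 3 the lowest of all 8 arrays. The difference was 0.15 (95% interval −0.14 to 0.44, limma adjusted p = 0.863), and it was −0.0078 without both control 3 and hydrogen water 4.

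Ctgf and Cyr61 are classical targets of YAP and TAZ. Ctgf, which encodes connective tissue growth factor, read 8.25, 8.87, 8.78 and 8.94 on controls 1 to 4 and 9.46, 9.36, 8.75 and 9.07 on hydrogen water 1 to 4. Above the highest control lay 3 hydrogen water arrays, and hydrogen water 3 lay among the controls. Hydrogen water averaged 9.16 ± 0.32 (SD, n = 4) and control 8.71 ± 0.31 (SD, n = 4), so that they differed by 0.45 (SE 0.18, 95% interval 0.06 to 0.84). This difference did not pass over all genes (limma unadjusted p = 0.0288, adjusted p = 0.687). Its unadjusted p was 0.05 or more in 4 of 17 alternative settings: without control 1, without hydrogen water 1, without hydrogen water 2 and with array weights. In the last 2 of these, Tead3 was the 1 gene of the 9 with an unadjusted limma p under 0.05. An exact permutation of the array labels gave a two-sided p of 0.114, where 0.0286 is the smallest that 4 against 4 allows. Control 1 was the lowest of the 8 arrays, and without it the difference was 0.30 on the log2 scale; without hydrogen water 3 it was 0.59 and the groups no longer overlapped.

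Cyr61, the other matricellular target, had a mean difference near 0. It read 7.89, 7.14, 7.07 and 7.93 in controls and 7.60, 7.64, 7.29 and 7.28 with hydrogen water. The controls split into 2 high and 2 low arrays, and all 4 hydrogen water values lay between them. The difference was −0.05 (95% interval −0.49 to 0.38, limma adjusted p = 0.977), and its sign turned when controls 1 or 4 or hydrogen water 3 or 4 were left out.

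**Figure D2:**
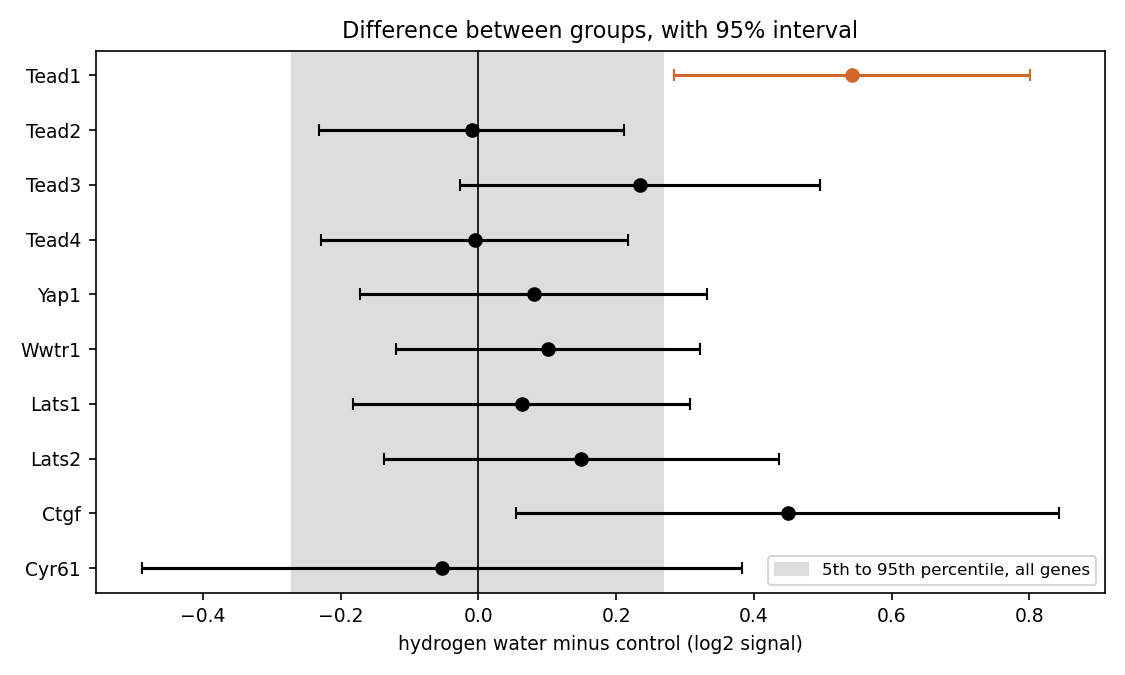
Difference in log2 signal between hydrogen water and control (x axis) for the 10 genes, with 95% intervals from limma (4 arrays per group); the band spans the 5th to 95th percentile of all genes, −0.27 to 0.27. Tead1 (0.54) and Ctgf (0.45) lie beyond the band and the other 8 genes within it.

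Whether targets followed Tead1 was asked within the groups, on values taken around each group's mean, so that the contrast by which Tead1 was chosen played no part. Relations with the other 9 genes were tested over 8 arrays by exact permutation within groups, two-sided, and adjusted over the 9. None passed at 0.05 in the data as deposited (lowest adjusted p = 0.172). For Ctgf, Pearson's r was −0.16 (exact permutation p = 0.675, adjusted p = 0.714) and Spearman's rho −0.14 (exact permutation p = 0.760, adjusted p = 0.828). Hydrogen water 3 shows the mismatch, with Tead1 0.11 above its group mean and Ctgf 0.41 below. Control 1 goes the other way, with both genes lowest among the controls (Tead1 at −0.13 and Ctgf at −0.46 around the group mean). The r of Ctgf was −0.63 without control 1 and 0.045 without hydrogen water 3. Leaving out the 2 arrays with the most extreme Tead1, control 3 and hydrogen water 2, gave an r of −0.15.

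For Cyr61 the relation was negative and did not pass in the data as deposited. The r of Cyr61 was −0.66 (exact permutation p = 0.0608, adjusted p = 0.273) and its rho −0.62 (exact permutation p = 0.104, adjusted p = 0.469). An r to Tead1 at least as low was found for 9.5% of the other 19937 genes. Tead1 was highest and Cyr61 lowest among controls on control 3, and hydrogen water 3 and 4 had Tead1 above and Cyr61 below their group mean. Without control 3 and hydrogen water 2, r was −0.35. With each array centred on its median, r was −0.69 and the relation passed (exact permutation p = 0.0017, the smallest these permutations can give; adjusted p = 0.0156). It passed in none of the other 13 settings tried.

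The closest member was Lats1, with an r of 0.85 (exact permutation p = 0.0191, adjusted p = 0.172) and a rho of 0.79 (exact permutation p = 0.0382, adjusted p = 0.344). On control 3 and on hydrogen water 3 and 4 both genes lay above their group mean, and on hydrogen water 2 both were lowest in their group. Without control 3 and hydrogen water 2, r was 0.57. With no array left out, an r to Tead1 at least as high as the 0.85 of Lats1 was found for 1.88% of the other 19937 genes. For Yap1 r was 0.17, for Wwtr1 −0.47, for Lats2 −0.44, for Tead2 −0.27, for Tead3 0.24 and for Tead4 −0.65 (exact permutation, adjusted p between 0.292 and 0.714); their rho values had the same signs, with adjusted p between 0.535 and 0.828.

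**Figure D3:**
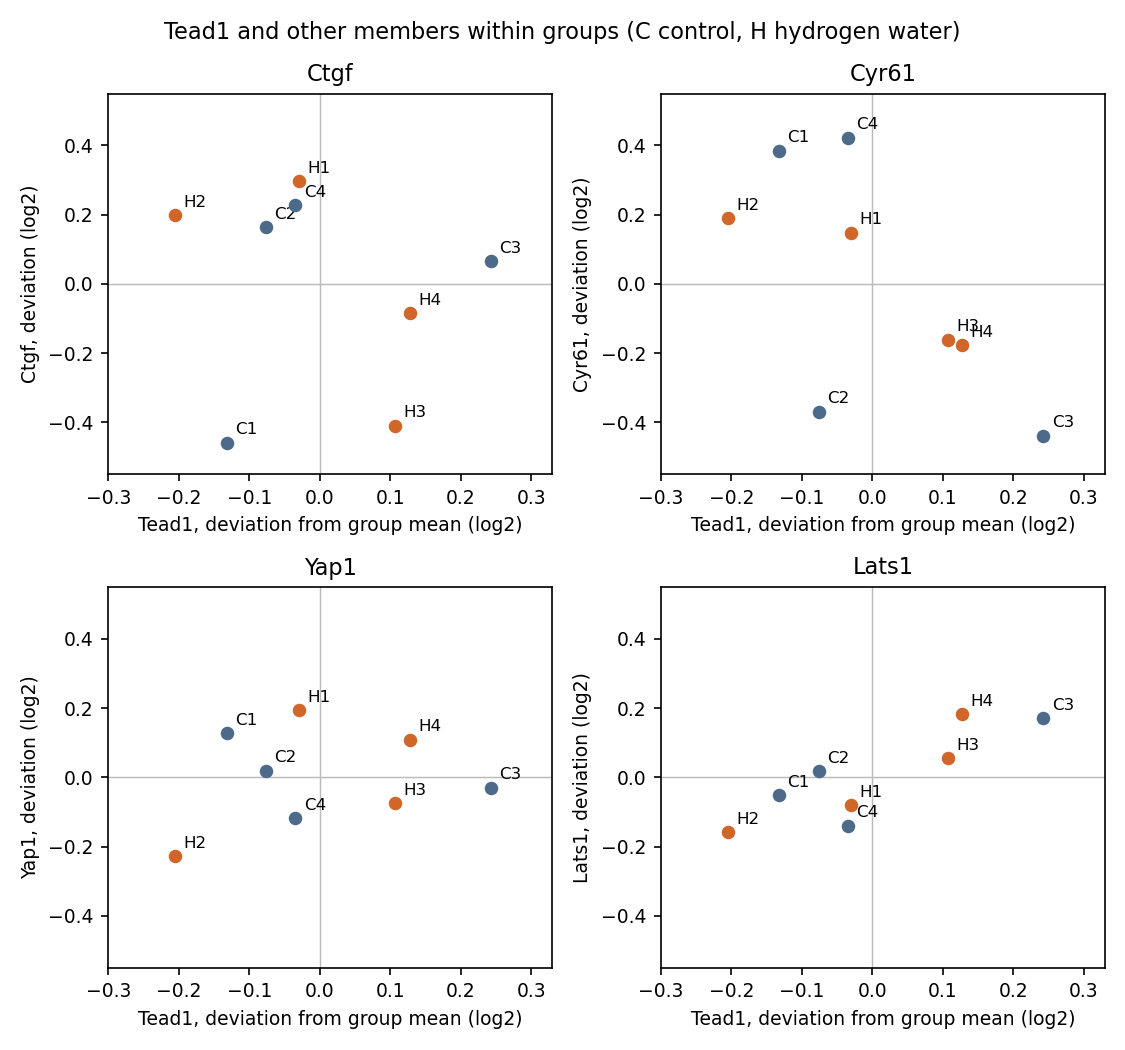
Deviation of Tead1 from its group mean (x axis, log2) against that of Ctgf, Cyr61, Yap1 and Lats1 (y axis, log2) on 8 arrays, labelled C for control and H for hydrogen water. Lats1 climbs with Tead1 (r = 0.85), Cyr61 slopes down (r = −0.66), and Ctgf (r = −0.16) and Yap1 (r = 0.17) show little slope.

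The 5 genes most like Tead1 within groups, among genes above the median level, were Tmem167b, Sec23a, Inpp5k, Kdm7a and Foxj3, with r between 0.966 and 0.976 over the 8 arrays. Sec23a encodes a coat protein of vesicles leaving the endoplasmic reticulum, Inpp5k an inositol phosphatase, Kdm7a a histone demethylase and Foxj3 a forkhead transcription factor. All 5 peaked on control 3 among the controls and were lowest on hydrogen water 2 among the hydrogen water arrays. Their differences between the groups were nonetheless small: −0.02, 0.11, −0.05, −0.03 and 0.21, all with overlapping groups. These genes were picked for their likeness, so r is a description.

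The rest of the pathway was described from lists of genes by role, with counts and medians set against all genes, whose median difference was −0.0047. Of 26 kinases, scaffolds and upstream regulators, 25 were measured. Of these, 19 differed upward and 6 downward, or 76% upward against 48.7% of all genes. Genes were counted whatever their effect on the cascade, so the count gives no direction of pathway activity. Limma's adjusted threshold was passed by 0, and an unadjusted limma p under 0.05 was reached by 0 (7.17% of all genes). Their median difference was 0.09, and it was −0.0042 without control 3 and hydrogen water 4. The list mean on these arrays was −0.15 on control 3 and 0.12 on hydrogen water 4, around the mean of all arrays. The kinases Taok3 and Taok2, which act upstream of the cascade, differed by 0.33 (SE 0.16) and 0.30 (SE 0.15), with limma adjusted p of 0.708 and 0.709.

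The core components named here lay within the 5th to 95th percentile of all genes (−0.27 to 0.27), Mob1b and Stk4 near its ends. Stk4, the gene for the kinase MST1, differed by 0.24 (SE 0.16) and Nf2, the gene for the scaffold merlin, by 0.21 (SE 0.12). Mob1b, a LATS cofactor gene, differed by −0.26 (SE 0.14) and Sav1, an adaptor of the MST kinases, by −0.04 (SE 0.11). Limma's adjusted p of these 4 genes lay between 0.743 and 0.961. Stk3, the gene for MST2, is not analysed here.

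Other YAP and TAZ targets were taken from a signature described in human tumours, all 19 of them measured. Of these, 10 differed upward and 9 downward, with a median difference of 0.06, and 0 passed limma's adjusted threshold. Without hydrogen water 2 the median was −0.015. At an unadjusted limma p under 0.05 there was 1 of the 19 genes (5.26%, against 7.17% of all genes), Asap1, which encodes a GTPase-activating protein for ARF. Asap1 read 6.58, 6.62, 7.05 and 6.79 on controls 1 to 4 and 7.24, 7.07, 7.38 and 7.33 on hydrogen water 1 to 4. Its groups were wholly apart, as for 1 of the 19 and for 3.76% of all genes in either direction. Control 3 was the highest control and hydrogen water 2 the lowest of its group. Its difference was 0.50 (SE 0.12, limma adjusted p = 0.617).

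Within groups, r to Tead1 was above 0 for 6 of the 19 targets (31.6%), against 51.8% of the other 19937 genes. The median r of the targets was −0.29, against 0.029 for those other genes. Among the targets r ran from −0.74 for Gadd45a to 0.96 for Asap1. Next to the top were Dock5 (0.87) and Axl (0.78), and next to the bottom Tgfb2 (−0.59) and Ccdc80 (−0.54). Dock5, Tgfb2 and Ccdc80 were named after their values were seen, and these r are a description over 8 arrays.

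Targets often used as reporters of YAP activity did not pass the test. Ankrd1 differed by −0.0035 (SE 0.11), Amotl2, an angiomotin-family gene, by −0.18 (SE 0.15) and the receptor tyrosine kinase Axl by 0.12 (SE 0.17). Ankrd1 was dim, at a mean log2 signal of 4.64 against a median of 5.87 over all genes. Its small difference therefore says little about its RNA. Of the 19 targets, 14 lay above that median. The phosphatase gene Ptpn14 differed by 0.24 (SE 0.12) and the stress-response gene Gadd45a by −0.18 (SE 0.14). Limma's adjusted p of these 5 genes lay between 0.7155 and 0.997. Of the 4 vestigial-like cofactors, which bind TEAD factors in place of YAP, 2 differed upward and 2 downward. Vgll4, the member that opposes YAP, differed by −0.02 (SE 0.12), Vgll3 by 0.17 (SE 0.12), Vgll1 by 0.09 (SE 0.13) and Vgll2 by −0.10 (SE 0.12). Vgll1 and Vgll3 were dim, at mean log2 signals of 4.03 and 5.01, and the other 2 lay above the median of all genes.

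**Figure D4:**
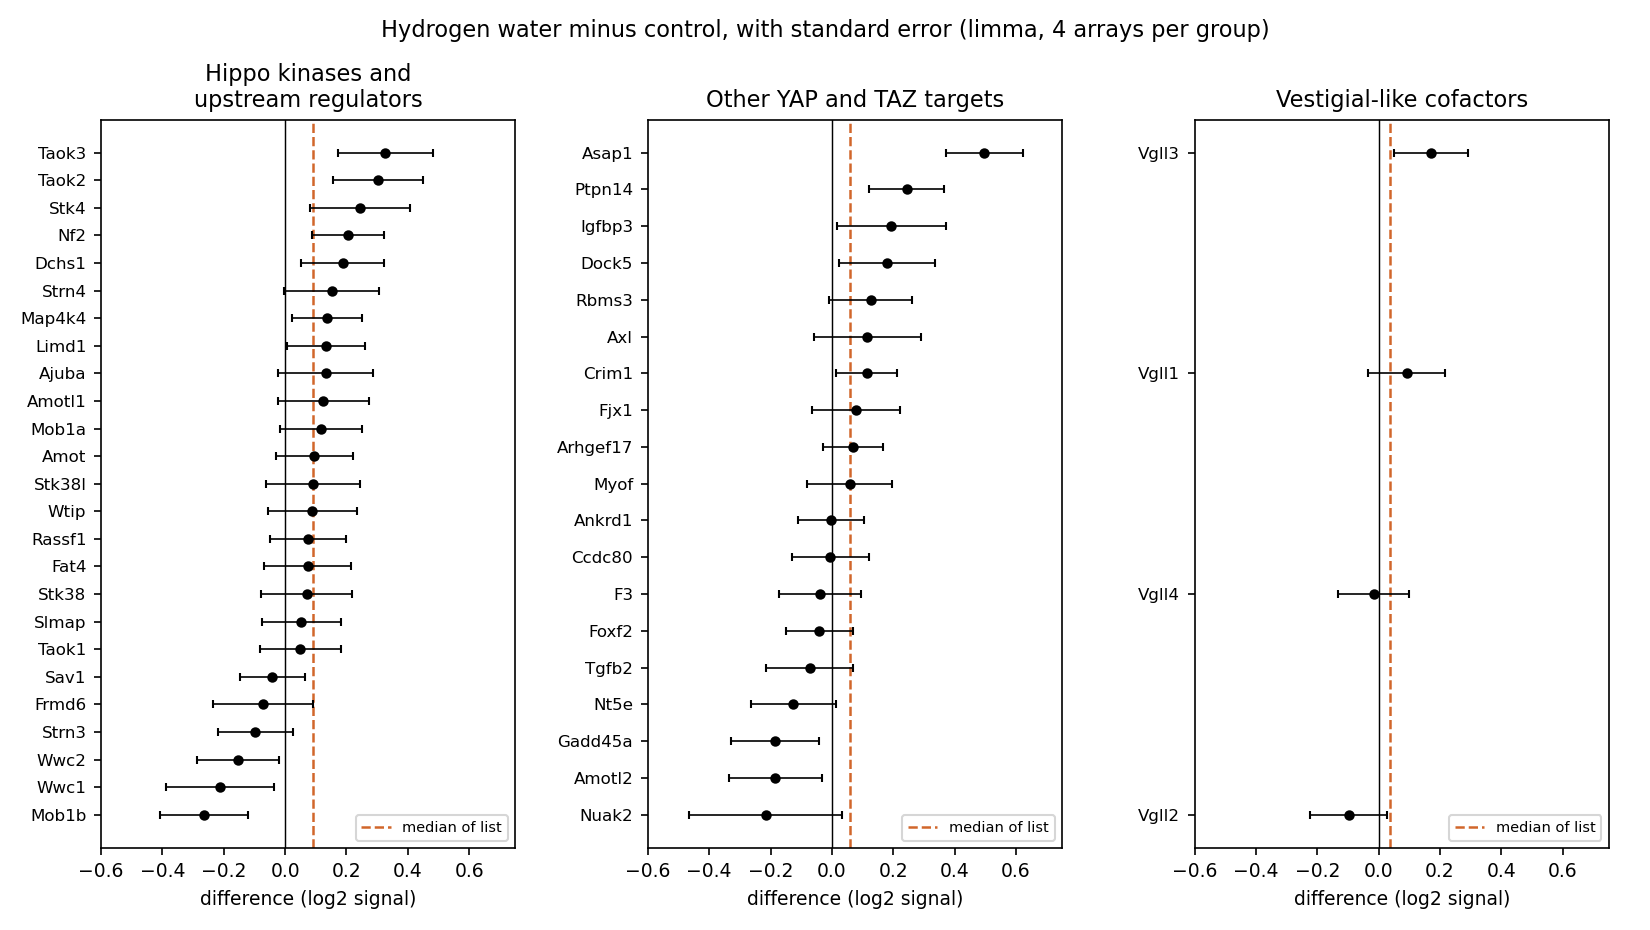
Difference in log2 signal between hydrogen water and control (x axis) with standard errors from limma for 25 upstream regulators, 19 other targets and 4 cofactors; dashed lines mark the list medians of 0.09, 0.06 and 0.04. Asap1, at 0.50, lies farthest to the right, and Mob1b, at −0.26, farthest to the left.

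Pathway genes are expressed in several liver cell types, and in bulk RNA a change in the share of a cell type cannot be told apart from a change of RNA per cell. Kupffer cell markers differed upward in 11 of 11 genes (median 0.39), with mean log2 levels per array of 6.38 to 6.96 in controls and 6.66 to 7.42 with hydrogen water. Sinusoidal endothelial markers differed upward in 11 of 11 (median 0.24), with levels of 7.75 to 8.30 and 8.004 to 8.64. Over all genes, 48.7% differed upward. An unadjusted limma p under 0.05 was reached by 4 of 11 Kupffer and 3 of 11 endothelial markers, or 36.4% and 27.3% against 7.17% of all genes. Groups were wholly apart for 1 Kupffer marker, the lectin gene Clec4f, and for 3 endothelial markers, the scavenger receptor genes Stab1 and Stab2 and the adhesion gene Pecam1, against 3.76% of all genes. In the Kupffer list control 3 was the highest control and hydrogen water 4 the highest array, as on the first Tead1 probe set; the endothelial list was highest on hydrogen water 2, where Tead1 was lowest in its group. The Kupffer list was lowest in its group on control 4 and hydrogen water 1, and Tead1 on control 1 and hydrogen water 2. Within groups, the list mean had an r to Tead1 of 0.67 for Kupffer markers and −0.29 for endothelial markers. Both are descriptions over 8 arrays. The part of these cells in the Tead1 difference was not tested.

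The other marker lists had medians of 0.04 or less. Stellate cell markers differed upward in 5 of 10 (median −0.03), with levels of 8.07 to 8.22 in controls and 7.87 to 8.34 with hydrogen water. Their differences ran from −0.49 for Lrat to 0.29 for Ecm1. An unadjusted limma p under 0.05 was reached by 1 of the 10, with hydrogen water lower (10%, against 7.17% of all genes). Cholangiocyte markers differed downward in 6 of 8 measured genes (median −0.11), with levels of 4.91 to 5.44 and 4.84 to 5.11; Cftr and Tspan8 were the dimmest, at 3.64 and 3.87 in controls. Smooth muscle markers differed downward in 5 of 5 (median −0.34), with levels of 5.34 to 6.45 and 5.24 to 5.54, and control 2 carried the top value. Mesothelial markers differed upward in 3 of 4 (median 0.04), with levels of 5.56 to 6.59 and 5.59 to 6.67. Hepatocyte markers differed upward in 2 of 7 measured genes (median −0.02), with levels of 13.75 to 13.78 and 13.73 to 13.82. No gene of these 7 lists passed limma's adjusted threshold.

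**Figure D5:**
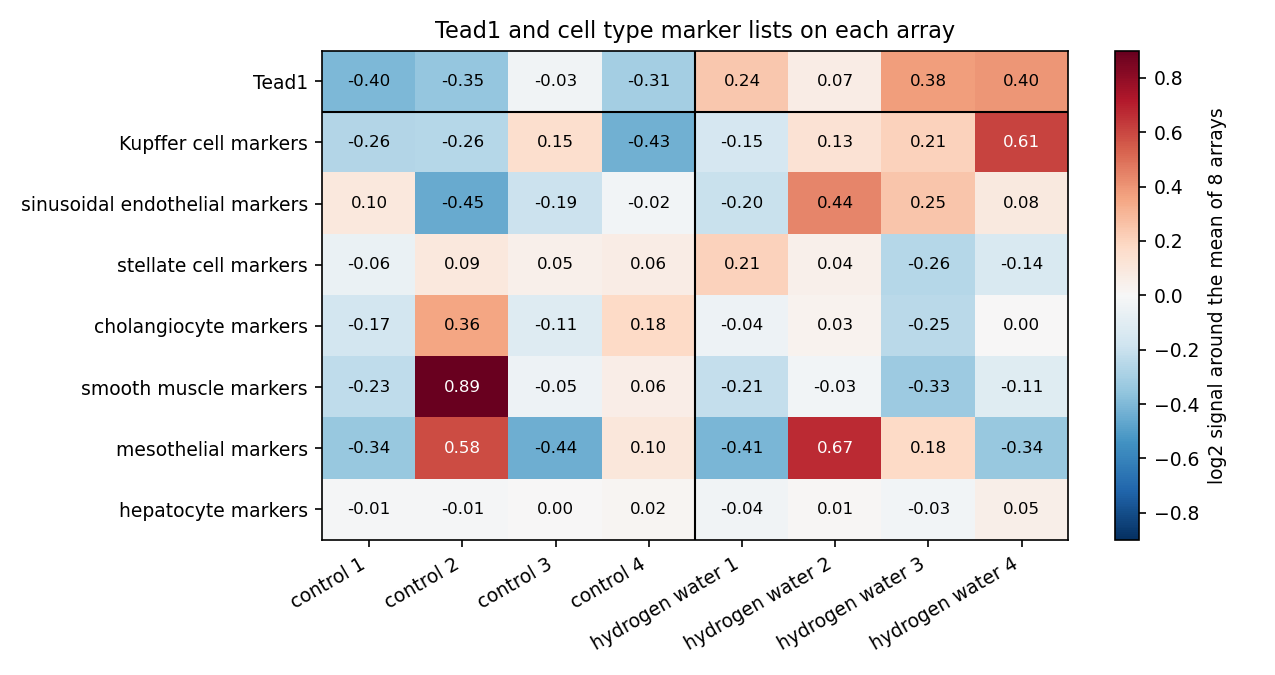
Tead1 and the mean of each cell type marker list on 8 arrays (colour and printed values: log2 signal around the mean of all 8). Tead1 is below 0 on all controls and above 0 on all hydrogen water arrays; Kupffer cell markers range from −0.43 on control 4 to 0.61 on hydrogen water 4, and smooth muscle markers peak at 0.89 on control 2.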

How the data were processed

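The values are log2 signals of probe sets on single arrays, as deposited by the authors. Per the submitters' processing notes, Affymetrix Expression Console produced them; how it corrected background and normalized, and for which build, is not given in the sources used here. The log2 scale was read from the values.

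Probe sets naming exactly 1 gene in the platform annotation (21789 of 35556) were kept, symbols were updated through a RefSeq table of GRCm38.p6, and the probe set with the highest mean stood for each gene. Of the members, 9 had 1 probe set and Tead1 had 2. All 19938 genes were fitted with limma 3.58.1 in R 4.3.3 (2 groups, no covariate, two-sided, Benjamini-Hochberg adjustment, threshold 0.05). The procedure was tested on simulated data, but its recovery of differences as small as those of the members is not given here. No pseudocount or filter was applied. Arrays have no read depth; 4 arrays per group limit the precision. Relations to Tead1 used deviations from group means and 576 within-group permutations.

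The members and lists were chosen with earlier results of these data known. Named genes were all members, up to 4 per pathway list with the smallest unadjusted p, 8 fixed by name (Stk3, Stk4, Sav1, Nf2, Vgll4, Amotl2, Ankrd1 and Axl) and the 5 most like Tead1. Alternatives tried were a filter on dim genes, every probe set, the mean of probe sets, quantile normalization, median centring, a trended robust variance, array weights, a replicate block, each array left out, and control 3 and hydrogen water 4 left out together. Figures used Python 3.11.15 and matplotlib 3.10.9.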

Additional observations from a re-analysis of the deposited data

How the results depend on the processing

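The difference of Tead1 stayed between 0.50 and 0.64 on the log2 scale over 17 alternative settings. Those of Tead3 (0.17 to 0.34), Ctgf (0.30 to 0.59), Yap1, Wwtr1 and Lats1 kept their sign over 17, and 0 of the 9 other members passed limma's adjusted threshold in any. With single arrays left out, Tead2 ranged from −0.038 to 0.047, Tead4 from −0.064 to 0.039 and Cyr61 from −0.20 to 0.088; without control 3 and hydrogen water 4 together, Tead4 was 0.0060 and Lats2 −0.0078. Members with groups wholly apart numbered 0 to 1 with single arrays left out (Tead3 without hydrogen water 2, Ctgf without hydrogen water 3), and the median of other YAP and TAZ targets ranged from −0.015 to 0.077. Over all genes, 0 to 1 passed with single arrays left out (Sucnr1 without control 2, Aqp8 without control 3), and 3 without control 3 and hydrogen water 4 (Aqp8, Mir297b and Usp17ld); these were named after their values were seen. The causes were not tested.

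Within groups, r of Tead1 with Ctgf was 0.043 under quantile normalization and ranged from −0.63 to 0.045 with single arrays left out. With median centring 1 relation passed, that of Cyr61 (r = −0.69). Without control 3 and hydrogen water 2, r was 0.74 for Tead2, −0.92 for Tead3, −0.75 for Yap1 and 0.26 for Lats2; with single arrays left out it ranged from −0.71 to 0.54 for Tead3, −0.45 to 0.39 for Yap1 and −0.68 to 0.19 for Lats2. With 8 arrays, the sign of r for Tead2, Tead3, Yap1, Lats2 and Ctgf rested on 1 or 2 of them. For Lats1, Tead4, Wwtr1 and Cyr61 r kept its sign in all 14 alternative settings, though its size varied.

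Arrays with the same replicate number did not deviate together (correlations of −0.16 to 0.06 over all genes). With the number as a replicate block, 0 genes and 0 of the 9 members passed, and the difference of Ctgf was 0.45 (limma adjusted p = 0.742).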
